A study of Drosophila melanogaster with 2 samples.

Results

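The subject is 10 genes of the heat shock response and its chaperones in Drosophila melanogaster, Hsp22, Hsp23, Hsp26, Hsp27, Hsp67Ba, Hsp67Bc, Hsp68, Hsp83, Hsc70-4 and Hsf, chosen by name from 18277 annotated genes on the assembled chromosome arms. The assay was ChIP-seq, which sequences the DNA recovered with an immunoprecipitated protein, here CG17612, from intact embryos aged 0 to 24 hours. The flies carried a transgene for CG17612 tagged with eGFP, a green fluorescent protein, and 2 biological replicates of that single group were immunoprecipitated with an antibody against GFP, although the antibody label names CG17612. The promoter that drives the fusion is not given in the sources used here, and a control experiment that the labels name was not analysed here. All embryos were unstressed as far as the labels say, since no heat shock is named, and because whole embryos of mixed stages were pooled, the cells and the hours that carried a peak cannot be told apart.

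Heat shock genes encode chaperones, proteins that keep other proteins folded. On heat, the heat shock factor, encoded by Hsf, binds heat shock elements upstream of these genes and releases RNA polymerase that is paused near their start sites, and the GAGA factor helps to keep some of these promoters open. The small heat shock genes sit together at cytological band 67B, and several of them are also transcribed during normal development, while Hsp83 (the fly Hsp90) and Hsc70-4 (the main cytosolic Hsc70) are abundantly expressed without heat.

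Of the 10 genes, 6 had a peak of the conservative list, which rests on both replicates, within 1 kb of a start site, namely Hsp27, Hsp83, Hsc70-4, Hsp26, Hsp22 and Hsp67Bc. The same holds for 11.1% of all 13968 protein-coding genes (1550 genes, 95% Wilson interval 10.6 to 11.6, which covers counting error only). A peak lay over the gene body in 3 of the 10, Hsp83, Hsp26 and Hsp22, against 10.1% of protein-coding genes. These same peaks also counted near a start site. With the summit required to lie in the body the count was 2, without Hsp26, whose summit is intergenic. These 6 genes shared 6 peaks, since Hsp83 had 2 and Hsp22 and Hsp67Bc shared 1. Hsp23, Hsp67Ba, Hsp68 and Hsf had none. The genes were listed with earlier results of these data known, 6 of them are neighbours in 1 cluster, and no test was run on the count.

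Of the stretches of these peaks that lie outside annotated exons, 4 are shown from the Release 6 genome (RefSeq, dm6 coordinates). Each is printed 5′ to 3′ on the strand of its gene. Capitals mark GAGAG (the core that the GAGA factor reads), TATAAA (the TATA box) and ATTTAAAA, each on either strand. The last is an 8-base word picked after the data were seen, for the difference between its share of windows at conservative summits (6.61%) and of flanking windows (1.98%). By the ratio of these shares other words lead, among them AAGTATGC (3.97% and 0.465%), which none of the 6 peaks held, against 5.19% of conservative peaks. Its other strand reads GCATACTT, the start of the Su(Hw) core GCATACTTT counted further below, so these absences are not separate.
Hsp27, the whole peak upstream of the gene, chr3L:9383823-9383974, plus strand: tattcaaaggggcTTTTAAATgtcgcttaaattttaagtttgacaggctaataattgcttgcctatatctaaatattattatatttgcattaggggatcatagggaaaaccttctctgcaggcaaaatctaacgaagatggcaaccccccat
Hsp26, the part of the peak before the first base of the gene, chr3L:9377428-9377723, minus strand: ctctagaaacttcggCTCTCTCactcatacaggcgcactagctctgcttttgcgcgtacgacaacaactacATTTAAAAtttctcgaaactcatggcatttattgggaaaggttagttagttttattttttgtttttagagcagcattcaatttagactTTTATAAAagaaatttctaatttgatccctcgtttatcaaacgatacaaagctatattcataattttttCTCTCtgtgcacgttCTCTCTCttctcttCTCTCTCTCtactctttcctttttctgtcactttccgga
Hsc70-4, 300 bases of the peak between this gene and tefu, chr3R:15242323-15242622, plus strand: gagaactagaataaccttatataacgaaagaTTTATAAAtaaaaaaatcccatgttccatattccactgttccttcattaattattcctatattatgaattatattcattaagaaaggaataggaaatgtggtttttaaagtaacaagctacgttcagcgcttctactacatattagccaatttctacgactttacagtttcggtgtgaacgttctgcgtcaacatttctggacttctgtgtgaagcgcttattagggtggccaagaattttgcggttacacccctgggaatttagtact
Hsp83, 300 bases of the intron peak, chr3L:3194067-3194366, plus strand: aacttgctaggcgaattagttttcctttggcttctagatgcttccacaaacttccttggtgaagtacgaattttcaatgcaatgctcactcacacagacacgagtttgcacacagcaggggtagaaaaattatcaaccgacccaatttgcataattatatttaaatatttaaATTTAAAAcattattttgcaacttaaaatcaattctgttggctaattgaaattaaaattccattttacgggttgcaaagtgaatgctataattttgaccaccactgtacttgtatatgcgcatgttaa

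Hsp27, which encodes a small heat shock protein found in the nucleus, carried the highest peak of the set. It had a signal of 317 in the list of both replicates, rank 106 of 2042 conservative peaks on the arms. The signal is the authors' own peak value with no stated scale, so a value is read against the other peaks of its own list and not against another list. The peak (chr3L:9383823-9383974, printed above) was 152 bp wide, one of 230 conservative peaks narrower than the 324 bp of the other 1811 of common width. Its summit lay in intergenic sequence 143 bp upstream of the single annotated Hsp27 start site. The signal was 140 in replicate 1 (rank 149 of 1255 thresholded peaks) and 174 in replicate 2 (rank 84 of 1312). The replicates' own peaks differ in extent from the pooled one, and their summits lay farther from the start site, 163 bp upstream in replicate 1 (at 9383900) and 162 bp in replicate 2 (at 9383901), against the pooled summit at 9383920.

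Hsp83, the cytosolic Hsp90 of the fly, had 2 conservative peaks, one at its start sites and one in its intron. The first (chr3L:3192946-3193269) had a signal of 184 (rank 329). Its summit was in the 5′ UTR, 139 bp downstream of the outer start site and 108 bp upstream of the inner one. The start site of CG14965, on the other strand, was 617 bp from this summit. In replicate 1 this peak had a signal of 119.8 and in replicate 2 it had 65.4. The intron peak (chr3L:3194054-3194377) had a signal of 125 (rank 662), and its summit lay 1000 bp downstream of the inner start site. It had a signal of 82.2 in replicate 1 and 51.7 in replicate 2. Both Hsp83 peaks were thresholded in each replicate's own list.

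A further peak near the 3′ end of the Hsp83 coding sequence passed only in the less strict of the pooled lists. This peak (chr3L:3196300-3196623) had a signal of 57.6 there, rank 2096 of 2207, and was at 38.7 and 25.1 in the ranked lists of replicates 1 and 2, thresholded in neither. In the ranked list behind the conservative one its −log10 of the irreproducible discovery rate (IDR, the estimated share of peaks at that level that the replicates do not both support) was 1.82, against at least 2.0 for every thresholded peak. Hsp83 was the only one of the 10 genes with a thresholded summit in a coding exon, in that list alone.

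Hsc70-4, the constitutive Hsc70 of the cytosol, had its peak in the gap between its own first start site and that of tefu, the ATM kinase gene on the other strand. The peak (chr3R:15242310-15242633, 300 bases printed above) had a signal of 123 (rank 687). Its summit lay 215 bp upstream of Hsc70-4 and 236 bp upstream of tefu, so the peak cannot be given to either gene alone. The signal was 64.7 in replicate 1 and 56.6 in replicate 2, both thresholded. Hsc70-4 has 6 annotated start sites, and the same summit also lay 418, 684 and 726 bp upstream of 3 of the inner ones. Its coding sequence held a ranked peak at chr3R:15244789-15245112 with a signal of 54.1 and a −log10 IDR of 1.74, short of the threshold, at 45.7 in replicate 1 and 23.6 in replicate 2.

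**Figure D1:**
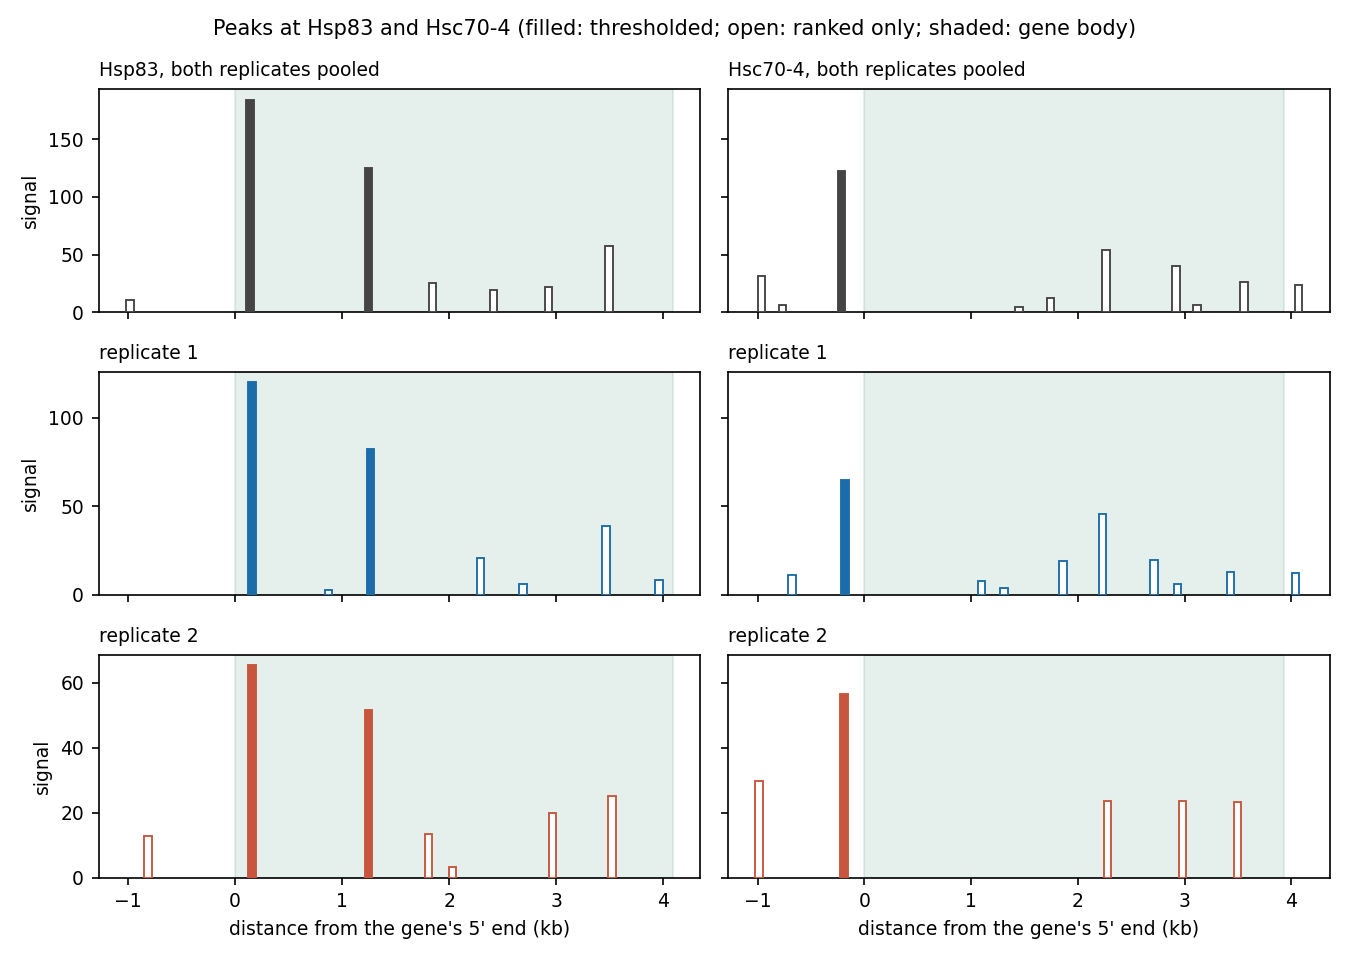
Signal of every listed peak (vertical axis, linear from 0, the authors' units) against the distance of its summit from the gene's 5′ end in kb, for Hsp83 and Hsc70-4, in both replicates pooled, replicate 1 and replicate 2. Filled bars passed the IDR threshold of that list and open bars are in the ranked list only, and the shaded span is the gene body. The filled bars stand at the start sites and intron of Hsp83 and just upstream of Hsc70-4 in all panels, and the coding sequences hold open bars.

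In the small heat shock cluster, 3 conservative peaks fell within 14.2 kb (chr3L:9371511-9385694), at Hsp27, Hsp26 and Hsp22. The span holds 10 annotated genes, among them the 6 listed here and the related CG4456 (also named Hsp67Bb) and CG4461. In this span replicate 1 had thresholded peaks at Hsp27 and Hsp26, and replicate 2 had one at Hsp27.

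Hsp26, which encodes a small heat shock protein of the cytosol, had a peak (chr3L:9377400-9377723) of signal 100.2, rank 978, close to the median of the conservative list (98.2). Its summit was 135 bp upstream of the outer and 187 bp upstream of the inner start site. The signal was 66.2 in replicate 1, where the peak was thresholded, and 30.2 in replicate 2, where it was not (−log10 IDR 0.682). Another start site near the summit is that of the antisense RNA gene asRNA:CR43481 on the other strand, 598 bp away. The Hsp26 peak was the only one of the 6 peaks with GAGAG, which it held 8 times counting overlaps, in the runs of C and T printed above.

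The peak at Hsp22 (chr3L:9373331-9373654), a gene for a small heat shock protein of mitochondria, was the weakest of the set, with a signal of 73.3 and rank 1620. Its summit lay in the 5′ UTR of the longer Hsp22 transcript, 562 bp downstream of the outer start site, which CG4456 shares, and 504 bp upstream of the inner one. Hsp67Bc, whose product takes part in autophagy with the co-chaperone Starvin, is counted by this peak alone, with the summit 996 bp from its start site. The signal was 40.3 in replicate 1 and 28.3 in replicate 2, and neither replicate's own list held the peak after its threshold. That pattern was common, as 29.3% of conservative peaks (598) were thresholded in neither replicate alone.

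**Figure D2:**
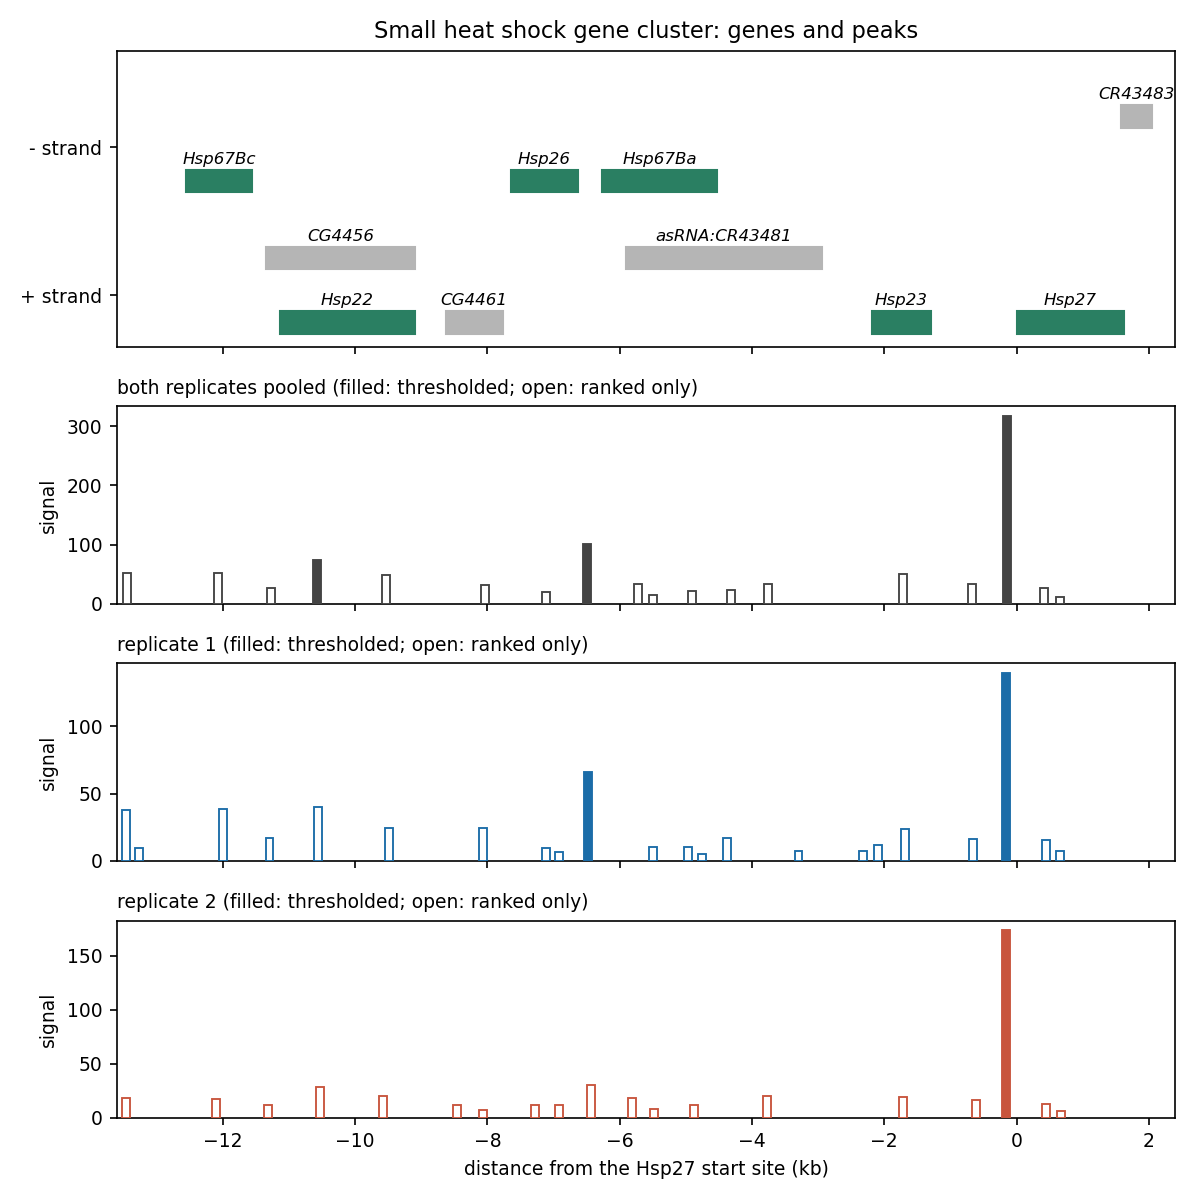
Genes of the small heat shock cluster by strand (top) and the signal of every listed peak (linear axes from 0) at its summit, in both replicates pooled, replicate 1 and replicate 2, against the distance from the Hsp27 start site in kb. Filled bars passed the IDR threshold of that list, open bars are in the ranked list only. The bar at Hsp27 is the tallest in every panel, at 317 pooled, 140 in replicate 1 and 174 in replicate 2, and the Hsp26 bar is filled in replicate 1 and open in replicate 2.

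The members without a thresholded peak differed in what the ranked lists held, where 90.7% of protein-coding genes have some peak within 1 kb of a start site. Hsp23, another cytosolic small heat shock gene of the cluster, had its highest ranked peak in its coding exon (chr3L:9382180-9382503) with a signal of 49.8, and 23.4 and 19.0 in replicates 1 and 2. Hsf, the gene of the heat shock factor itself, had one in its coding sequence (chr2R:18133710-18134033) at 46.4, and 28.3 and 21.9 in the replicates, with a −log10 IDR of 1.14. Hsp67Ba, a further small heat shock family member, had no peak above 34.0, and its highest peak stood at a different place in each of the 3 lists. Its highest values in replicates 1 and 2 were 17.1 and 19.998.

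Hsp68, a heat-inducible gene of the Hsp70 family, had no ranked peak within 1 kb of its start site in the pooled list or in either replicate. Over its coding exon the highest ranked peak (chr3R:24055910-24056233) had a signal of 32.0, and the highest were 14.2 in replicate 1 and 11.1 in replicate 2. These were the lowest values among the 10 genes in all 3 lists. Over all protein-coding genes with a ranked peak, the median of the highest signal was 42.4 in the pooled list, 26.2 in replicate 1 and 21.1 in replicate 2.

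Taken over the start-site windows and bodies together, the highest ranked signal of the 10 genes ran from 32.0 to 317, with a median of 73.3, against 42.4 for all protein-coding genes. In replicate 1 it ran from 14.2 to 139.7 with a median of 40.3, against 26.2. In replicate 2 it ran from 11.1 to 174 with a median of 28.3, against 21.1. In the pooled list, Hsp27 stood above 98.95% of all protein-coding genes, those with no ranked peak counted as lower. By the same count Hsp83 stood above 96.9%, Hsc70-4 above 93.9%, Hsp26 above 91.8%, and Hsp22 and Hsp67Bc above 86.8%. Hsp23 and Hsf stood above 68.6% and 62.7%, and Hsp67Ba and Hsp68 above 32.7% and 28.01%. Hsp23 stood lower in the replicates' own lists, above 42.2% in replicate 1 and 44.4% in replicate 2. Its signal was below the median of all protein-coding genes in both. The order of the lead pair, Hsp27 before Hsp83, was the same in both replicates, while Hsp26 and Hsc70-4 differed by little in replicate 1 (66.2 and 64.7) and by more in replicate 2 (30.2 and 56.6).

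**Figure D3:**
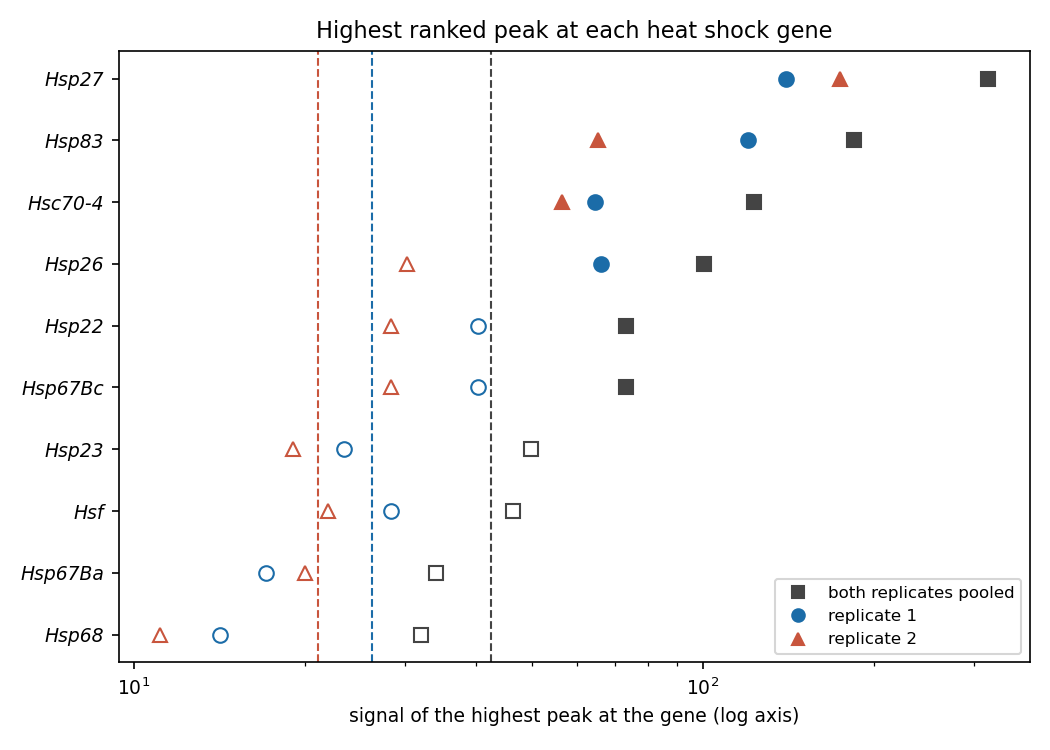
Signal of the highest peak at each of the 10 genes (horizontal log axis) in both replicates pooled (squares), replicate 1 (circles) and replicate 2 (triangles). Filled symbols mark genes with a thresholded peak in that list, and dashed lines the median over all protein-coding genes, 42.4 pooled, 26.2 in replicate 1 and 21.1 in replicate 2. Hsp27 is highest in all 3 lists. Hsp67Ba and Hsp68 lie left of each line, and Hsp23 lies left of the lines of both replicates.

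Counted by replicate, Hsp27, Hsp83 and Hsc70-4 had a thresholded peak within 1 kb of a start site in each replicate's own list. Replicate 1 added Hsp26, for 4 of 10 genes, against 8.12% of protein-coding genes, and replicate 2 had 3 of 10, against 7.45%. A peak over the body was thresholded at 1 gene in each replicate, Hsp83 in both, against 6.79% and 6.49% of protein-coding genes in replicates 1 and 2. Of the 6 peaks, 4 were thresholded in both replicates, against 41.2% of all conservative peaks. Each peak's position was also read within each replicate among the 2020 conservative peaks with a value in both. Hsp27 stood above 92.6% of them in replicate 1 and 95.8% in replicate 2. The Hsp83 start-site peak stood above 89.6% and 70.8%, the Hsp83 intron peak above 77.03% and 55.8%, and the Hsc70-4 peak above 64.5% and 62.6%. The Hsp26 peak differed most in position, above 66.3% in replicate 1 and 9.01% in replicate 2, and the Hsp22 peak stood above 21.9% and 4.5%. The sequencing depth of the replicates is unknown, and its part in these positions was not tested.

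**Figure D4:**
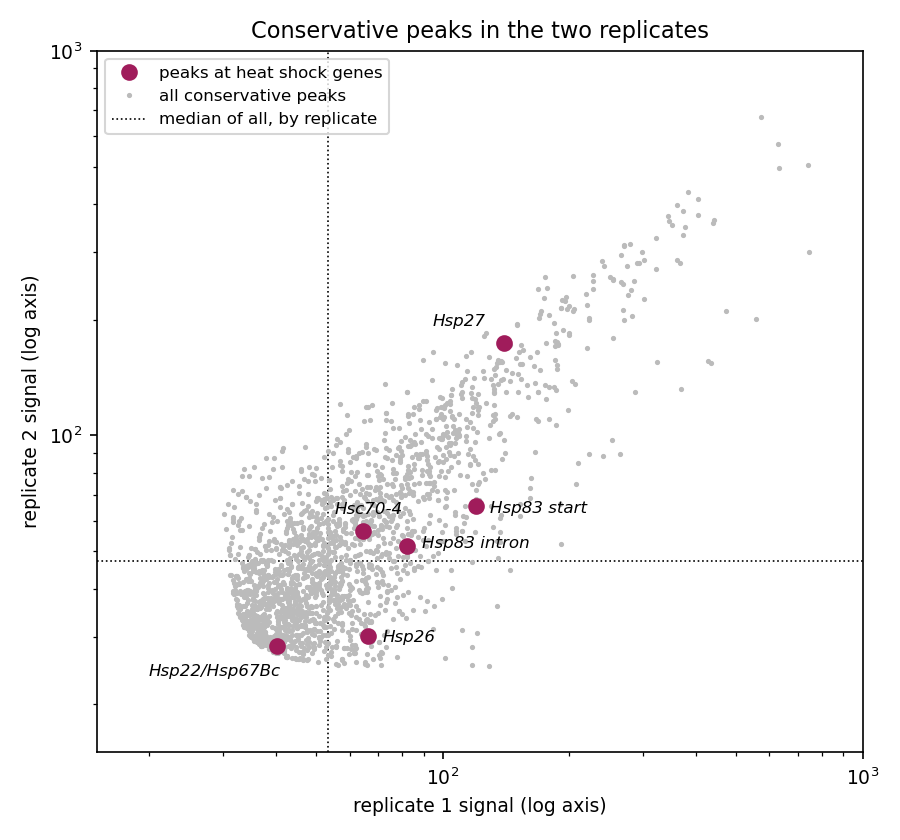
Signal in replicate 1 (horizontal log axis) and replicate 2 (vertical log axis) of the 6 conservative peaks at the heat shock genes (large points) and of all 2020 conservative peaks on the arms with a peak in both ranked lists (small points), with each replicate's median over the 2020 dotted (53.3 and 47.1). Hsp27, Hsc70-4 and both Hsp83 peaks lie above both medians, Hsp26 above that of replicate 1 alone, and Hsp22 below both.

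The 3 protein-coding genes whose highest start-site peak was nearest to that of Hsp27 in log2 signal of replicates 1 and 2 were CG3009 (signals of 144 and 172), and CG13016 and CG13018, which share 1 peak (153 and 171). Their distances were 0.050, 0.136 and 0.136 on that scale, over 2 samples and 1540 genes compared. The likeness is in signal alone.

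Short runs of letters were counted in the 6 peaks, beside their share of all conservative peaks. Several of these runs are rare in all conservative peaks, so a count of 0 of 6 says little. None of the 6 held a heat shock element of 3 full units (GAA and TTC in alternation, each unit 2 bases from the next, on either strand), against 0.245% of all conservative peaks. The search took only exact units, and in the 250 bp upstream of the members' start sites it matched at Hsp68 and Hsc70-4 alone. Elements with imperfect units would be missed, so this count does not show that the peaks lack heat shock elements. GAGAG was in 1 of 6, that of Hsp26, against 36.5%. TATAAA was in 4 of 6, against 40.9%. The 8-base word TATCGATA, read by the factor Dref, the Su(Hw) core GCATACTTT, the motif 1 core GGTCACAC and CAGCTG were in 0 of 6, against 3.82%, 4.41%, 2.79% and 16.7%. Within 50 bp of the summit, TATAAA was in 1 of 6, against 19.6%, and the other 6 were in 0. Their shares of all conservative peaks in that narrower window were 0.196% for the heat shock element, 9.7% for GAGAG, 1.13% for TATCGATA, 3.53% for GCATACTTT, 0.539% for GGTCACAC and 3.53% for CAGCTG. The word ATTTAAAA was in 3 of 6 whole peaks, those of Hsp27, Hsp26 and the Hsp83 intron, against 14.4% of conservative peaks and 13.2% of the 250 bp upstream of all protein-coding genes, and it was chosen on these same peaks. Within 50 bp of the summit it was in 1 of 6, the Hsp83 intron peak, against 6.61%. A match is a run of letters and not a shown binding site.

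Other genes of the chaperone system carried peaks in a share nearer to the background. Of 49 further genes, 8 had a conservative peak within 1 kb of a start site and 9 there or over the body, against 11.1% and 14.0% of protein-coding genes. The highest was at mrj, a J-domain co-chaperone, in an intron 329 bp upstream of the nearest start site (chr2R:16206405-16206728), with a signal of 269, and 138 and 139 in replicates 1 and 2. Next came Tpr2, another J-domain protein, with a peak in an intron only (136, replicates 66.9 and 70.6). CG11267, the mitochondrial Hsp10, followed, with its summit 88 bp upstream (124, replicates 85.3 and 56.5). Hsc70-5, the mitochondrial Hsp70, had 99.97 (replicates 64.4 and 44.9), and stv, which encodes Starvin, had 99.3 (replicates 49.4 and 54.9).

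The small heat shock gene CG14207 had a signal of 97.1 (replicates 61.95 and 41.9), from a summit 1063 bp upstream, and Gp93, the Hsp90 of the endoplasmic reticulum, had 91.5 (replicates 53.8 and 35.2). CG4456 counts by the Hsp22 peak, and the J-domain gene Droj2 had 62.05 (replicates 35.5 and 29.3). Peaks at mrj, Tpr2, CG11267 and stv were thresholded in both replicates. Several of these peaks had another gene's start site within 1 kb, such as tRNA:Gln-CTG-1-1 at mrj, MICAL-like at CG11267, CG8531 at Hsc70-5 and mfrn at Gp93.

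By family, 3 of 8 J-domain genes and 2 of 6 small heat shock genes had a conservative peak near the start or over the body. So did 1 of 5 Hsc70 and Hsp110 genes, 1 of 6 Hsp90 family and co-chaperone genes and 1 of 13 chaperonin genes. Among the other co-chaperone and RNA genes it was 1 of 5. The share of all protein-coding genes was 14.0%. Of the 2 small heat shock genes, CG4456 counts by the Hsp22 peak and CG14207 had no peak in the less strict pooled list. All 8 subunit genes of the cytosolic chaperonin CCT lacked a thresholded peak. In the ranked list behind the conservative one, their highest signals lay between 27.3 at CCT4 and 72.0 at CCT8. In the ranked list behind the less strict one, CCT4 had 38.5. The heat-inducible Hsp70 genes, the textbook targets of heat shock factor, had 0 of 6. Their highest signals in the ranked list behind the conservative one ran from 6.63 at Hsp70Aa to 20.7 at Hsp70Ab, with no peak at Hsp70Bb. These genes are near-identical copies, so how reads were shared among them is uncertain and was not examined. DnaJ-1, the main heat-inducible J-domain gene, had no peak in any ranked list within 1 kb of its start site or over its body. The same held for the co-chaperone gene HIP-R.

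**Figure D5:**
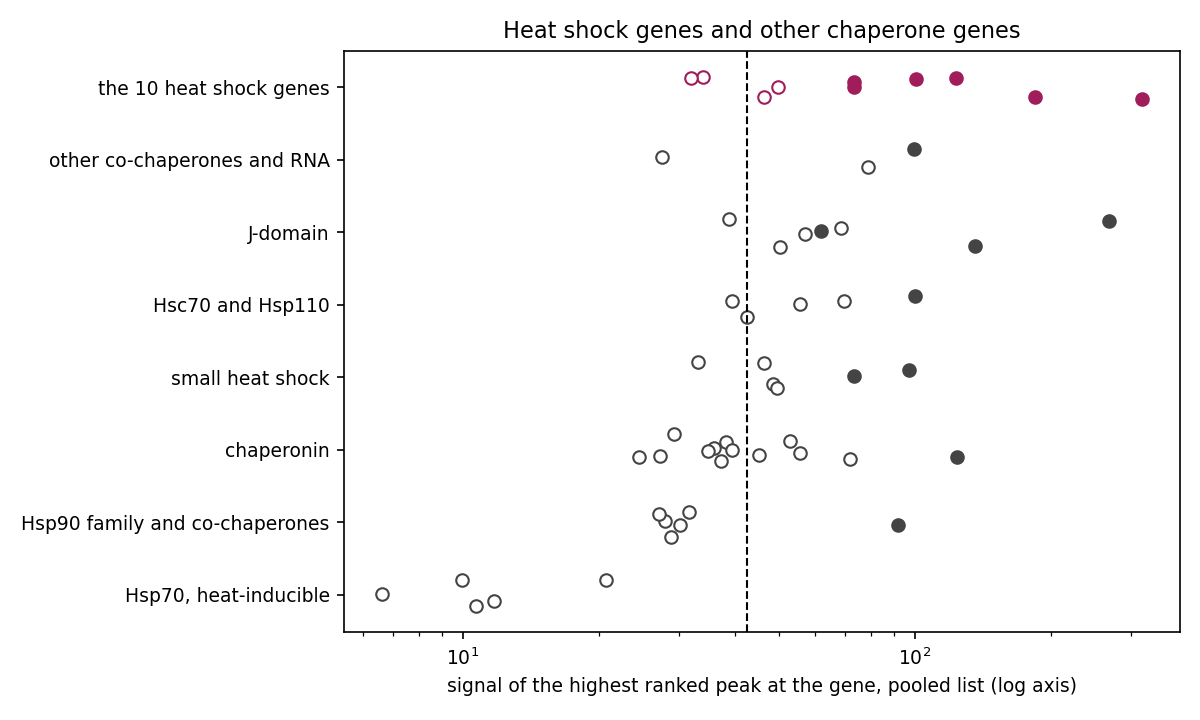
Signal of the highest ranked peak of the pooled list (horizontal log axis) at each of the 10 heat shock genes (top) and at the other chaperone genes by family, 1 point per gene, with vertical jitter. Filled points are genes with a conservative peak near a start site or over the body, and the dashed line is the median of all protein-coding genes (42.4). The heat-inducible Hsp70 genes lie left of the line, and 8 of the 10 heat shock genes lie right of it.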

How the data were processed

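ChIP-seq of CG17612-eGFP in whole embryos (2 biological replicates, 1 group) was deposited as 4 thresholded and 4 ranked peak lists on dm6, per the deposited description files. Pooled lists rest on both samples' alignments, a replicate's list on its own alone. Which aligner and caller were used is not given in the sources used here. Each peak carries the authors' signal value, which has no stated scale. The second deposited value used, a score, is the −log10 of the global IDR. A summit in a 324 bp peak is its midpoint in all 1811 cases. No read counts are in the lists, so depth is unknown. Labels give fragments of 200 to 800 bp.

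Peaks on the 7 arms were set against the Ensembl release 115 annotation (BDGP 6.54, 24111 start sites) and the Release 6 genome with Python 3.11.15 and pandas 2.3.3. Coordinates are 1-based, and all 10 coding sequences read ATG at their start. A peak counted for a gene when at least 1 bp lay within 1000 bp of any start site, or over the body. A replicate's signal at a peak is that of the strongest peak overlapping it in the replicate's ranked list. Members and lists were chosen with earlier results of these data known. Genes named were the 10, their neighbours at peaks, chaperone list genes with a peak (52 of 58 names matched, 49 genes) and the 3 nearest to Hsp27. With 1 group, no test was run. The overlap count was checked on simulated peaks. Alternatives were the other lists, the higher-scoring peaks, windows of 500 and 2000 bp, summits, and the gene's 5′ end.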

Additional observations from a re-analysis of the deposited data

How the results depend on the processing

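The list decided most counts. Without replicate 1 or without replicate 2, that is in the other replicate's own list, the genes with a peak within 1 kb of a start site numbered 3 to 4 in place of 6, those with one over the body 1 to 1 in place of 3, the peaks 4 to 5 in place of 6, and the chaperone genes 3 to 5 in place of 8. The median percentile of the members' peaks within their list was 48.6 to 63.1 in place of 66.97, and the share of protein-coding genes 7.45% to 8.12% in place of 11.1%. Hsp22 and Hsp67Bc were in neither replicate's count and Hsp26 was not in that of replicate 2. With only the higher-scoring peaks, 4 of the 10 genes had a peak within 1 kb (Hsp22 and Hsp67Bc lost), the share of protein-coding genes was 6.74%, the chaperone genes numbered 4 and the median percentile was 35.2, as fewer peaks were ranked. A window of 500 bp lost Hsp67Bc (5 genes, against 9.46% of protein-coding genes), and one of 2000 bp added Hsp23 and Hsp67Ba (8 genes, against 13.99%). Of the 48 recomputed values, 39 stayed within 1.5 times the main value or, for percentiles, within the spread between replicates, and 9 moved further. Several of those listed above are among the 39, such as the 4 and 5 peaks and the 5 and 8 genes of the other windows. No paired analysis was possible because there is 1 group. With no read counts, how far depth limits the weaker peaks is unknown.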

Other observations

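Heat shock elements of 3 full units, searched as exact letters, were found upstream of start sites of Hsp68 and Hsc70-4 and of no other member. Elements with imperfect units were not searched, so how elements and peaks relate cannot be read from these matches. The 250 bp upstream of the Hsp68 start site held 3 overlapping matches, starting 182, 177 and 172 bp before it, and Hsp68 had no listed peak within 1 kb. Hsc70-4 held 1 match, 205 bp before its inner start site at 15243156, while the summit of its peak lay 684 bp before that site. This match lies downstream of the outer Hsc70-4 start site at 15242687. Over all protein-coding genes, 0.351% held such an element in the 250 bp upstream, and 5 of the 2042 conservative peaks (0.245%) held one. DRE, the word TATCGATA, was found 182 bp before the outer Hsp83 start site, outside the conservative peak there.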
